A study of Mus musculus with 13 samples.

Results

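The genes described here are 9 genes for transcription factors of cortical excitatory neurons, taken by name from a count table of 48795 genes: the NeuroD genes Neurod6, Neurod1 and Neurod2, and the cortical layer genes Tbr1, Bcl11b, Fezf2, Cux1, Cux2 and Rorb. They were measured by RNA sequencing of the right brain hemisphere of 13 mice at postnatal day 11, after removal of the olfactory bulb and cerebellum. The 5 control mice carried the YAP5SAnls transgene without Cre (NexCre -/- YAP5SAnls +/-), the 5 nlsYAP5SA mice carried the transgene together with the NexCre allele (NexCre +/- YAP5SAnls +/-), and the 3 C57BL/6 mice were wild type and not littermates of the others. All 3 groups had the C57BL/6J strain background, and control and nlsYAP5SA pups were littermates from a pair of matings. The transgene encodes a nuclear form of the Hippo pathway coactivator YAP1 that cannot be inhibited by phosphorylation, and it is silent until Cre removes a stop cassette. The study asked what changes in brains in which this transgene drives tumours that resemble ependymoma, a tumour of the cells lining the ventricles.

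In the developing dorsal forebrain, neurons that use glutamate are made from progenitors in a set order, and a cascade of transcription factors follows each cell from birth to its layer. Neurod1, Neurod2 and Neurod6 are basic helix-loop-helix factors that bind short E-box sequences and drive or maintain neuronal differentiation. Tbr1, Bcl11b (CTIP2) and Fezf2 specify deep-layer neurons that project below the cortex, whereas Cux1, Cux2 and Rorb mark upper layers and layer 4. NexCre is Cre placed in the Neurod6 gene, formerly named Nex, so it is driven by the promoter of one of the measured genes. Each nlsYAP5SA mouse therefore had 1 altered Neurod6 allele, and no group carried Cre without the transgene, so the effect of the Cre allele on Neurod6 and that of the transgene cannot be told apart. It was not known from the sources used here which transcribed parts of Neurod6 the Cre allele keeps, and the counts were summed over the whole gene.

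Neurod6 lies on chromosome 6 at 55677822 to 55681263 on the minus strand (GRCm38). Its sister gene Neurod2 lies on chromosome 11 at 98325415 to 98329648, also on the minus strand. The stretches just upstream of both genes are shown for members of the same family that are active in the same neurons. Whether these stretches bear on the levels below was not tested, and Neurod6 had an altered allele in every nlsYAP5SA mouse. Both are RefSeq sequences of GRCm38.p6 written in the direction of the gene, up to the last base before the annotated first exon. Capitals mark each E-box, written CANNTG.
Neurod6, chr6:55681264-55681513, minus strand: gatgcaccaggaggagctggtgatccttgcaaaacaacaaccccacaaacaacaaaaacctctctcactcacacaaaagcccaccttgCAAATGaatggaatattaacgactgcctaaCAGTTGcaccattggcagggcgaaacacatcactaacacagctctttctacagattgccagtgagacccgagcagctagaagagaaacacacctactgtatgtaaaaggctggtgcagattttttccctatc
Neurod2, chr11:98329649-98329895, minus strand: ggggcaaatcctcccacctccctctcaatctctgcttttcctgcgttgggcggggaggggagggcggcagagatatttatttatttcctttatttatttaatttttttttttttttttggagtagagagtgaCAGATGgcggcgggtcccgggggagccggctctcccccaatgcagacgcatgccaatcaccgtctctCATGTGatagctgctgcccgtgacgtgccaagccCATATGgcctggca
The Neurod6 stretch held 2 E-boxes, CAAATG and CAGTTG, and the Neurod2 stretch held 3, among them the form CAGATG that NeuroD factors are known to favour. Of the 11 promoters listed for the 9 genes, 7 had a CANNTG in the 250 bases before the start, against 66.2% of 32851 mouse promoters. CAGATG or its reverse complement CATCTG, which are both also CANNTG, stood in 2 of the 11 promoters, those of Neurod2 and Cux2, against 14.4% of all promoters. CANNTG reads the same on both strands as a pattern, so each occurrence was counted once. These shares describe letters in a window and not binding.

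The other genes were Neurod1 (chromosome 2, 79452521 to 79456751, minus strand), Tbr1 (chromosome 2, 61802930 to 61814114, plus strand), Bcl11b (chromosome 12, 107910403 to 108003602, minus strand), Fezf2 (chromosome 14, 12342094 to 12348189, minus strand), Cux1 (chromosome 5, 136248135 to 136567490, minus strand), Cux2 (chromosome 5, 121856366 to 122050102, minus strand) and Rorb (chromosome 19, 18930605 to 19111196, minus strand). Exons of Neurod1 share 201 bases with Cerkl on the same strand and 154 bases with Gm26755 on the opposite strand, and exons of Cux1 share 394 bases with Gm16599 on the opposite strand. No strand setting was named for the counting, so the values of Neurod1 and Cux1 are uncertain to that extent. The exons of the other 7 genes overlapped no annotated exon of another gene.

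Sequencing depth was similar between groups, with 21380744 to 25524349 estimated counts per control sample, 20871566 to 23586887 per nlsYAP5SA sample and 21541836 to 24392197 per C57BL/6 sample. Levels are given as CPM, a gene's counts relative to the TMM-normalised total of its sample. All 9 genes passed the filter on low counts, and the smallest value among them was 306 counts, for Neurod1 in a C57BL/6 sample. Sex was not given for single mice, so the reads of 4 Y-linked genes (Ddx3y, Eif2s3y, Kdm5d and Uty) were summed. All 5 control samples held such reads, at 91.9 to 126 CPM, as did 2 of the 5 nlsYAP5SA samples (replicates 3 and 4, 129 and 131 CPM) and 2 of the 3 C57BL/6 samples (117 and 145 CPM), while the remaining 4 samples were at or below 0.0958 CPM. Presence of Y-linked reads thus moved with the groups, and values within samples that had them are given for Neurod6 and Cux2, the genes called below.

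The labelled tissue was checked against its defining markers, and Slc17a7, the vesicular glutamate transporter of cortical excitatory neurons, ranged from 648 to 962 CPM over the 13 samples. Per kilobase of exon, Neurod6 was the most abundant of the 9 genes in controls at 45.2 ± 3.54 CPM per kb (SD, n = 5). Neurod2 followed at 18.7 ± 1.64, then Tbr1 at 14.6 ± 1.47 and Bcl11b at 14.5 ± 1.10 CPM per kb. Tbr1 and Bcl11b did not differ beyond their spread, and with the longest transcript as length Tbr1 stood at 20.1 CPM per kb, above Neurod2. Cux2 was at 9.20 ± 0.841 and Fezf2 at 7.04 ± 0.489 CPM per kb, and their ranges did not overlap. The lowest levels per kb were those of Neurod1 (5.95 ± 0.358), Cux1 (5.74 ± 0.171) and Rorb (4.01 ± 0.620). The ranges of Neurod1 and Cux1 overlapped, whereas Rorb lay below both. With the longest transcript as length, Cux1 stood at 8.94 and Fezf2 at 8.83 CPM per kb, so the place of Cux1 rests on the length used. In nlsYAP5SA samples Neurod6 was at 22.9 ± 3.33 and Neurod2 at 18.3 ± 2.02 CPM per kb (SD, n = 5), and there the ranges of the pair, 18.1 to 26.4 and 16.3 to 20.4, overlapped.

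**Figure D1:**
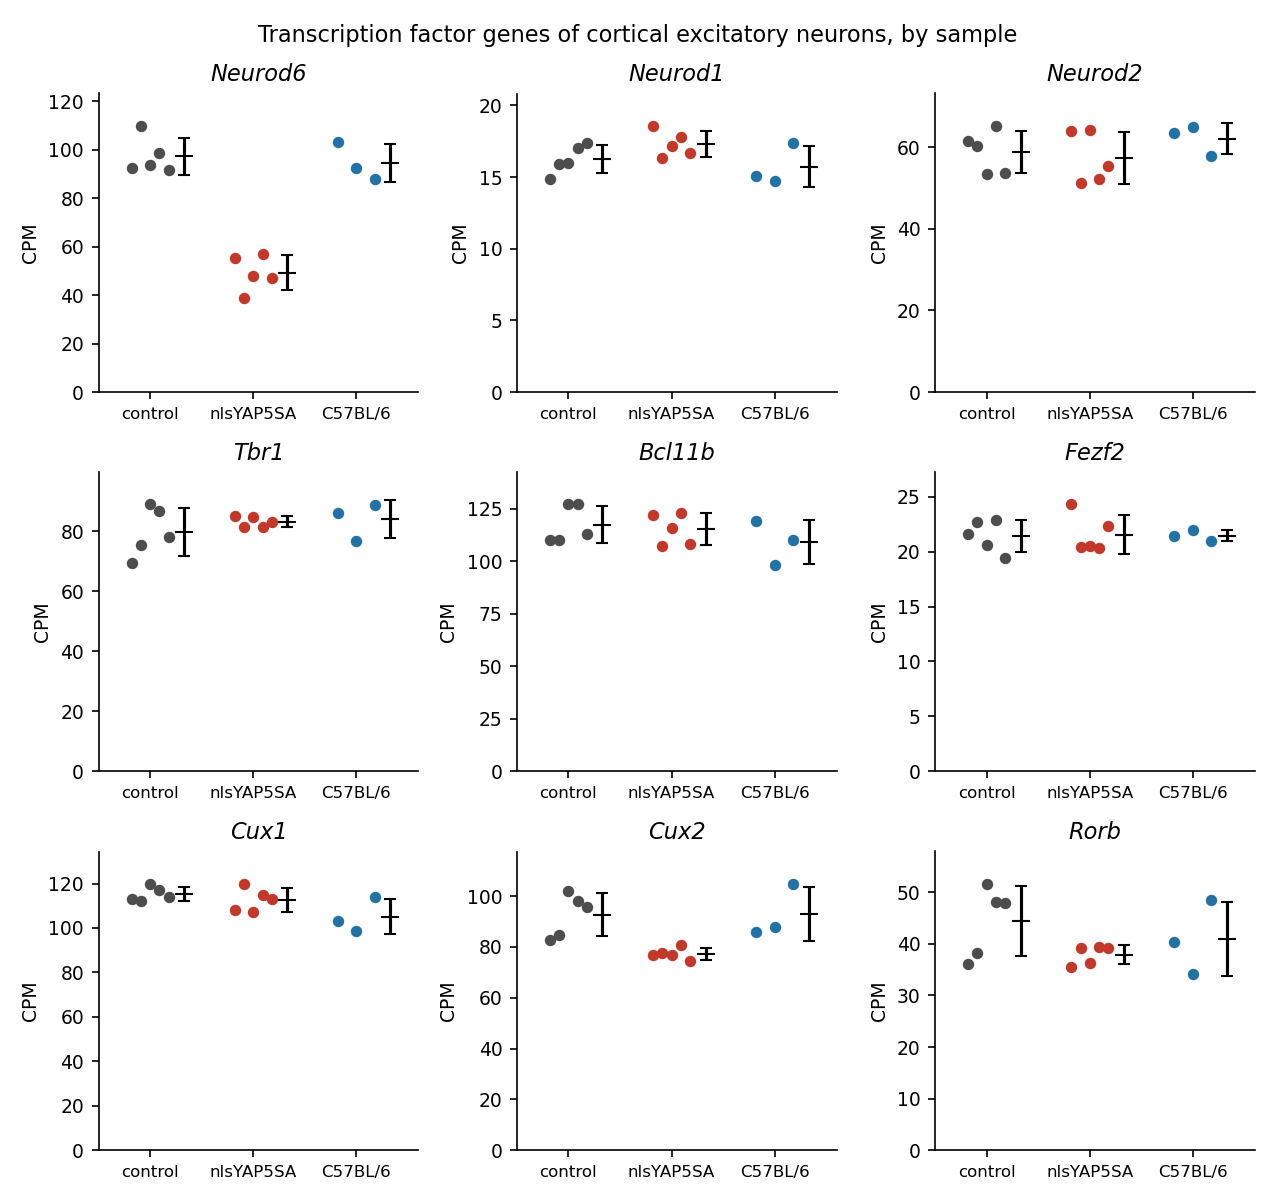
Normalised level (CPM, linear axis from 0) of each of the 9 genes in each of the 13 samples, by group; points are samples, and the bar beside them is the mean with its SD. Neurod6 lay between 38.9 and 56.8 CPM in the 5 nlsYAP5SA samples and between 88.0 and 110.0 CPM in the other 8 samples, and Cux2 was the other gene whose nlsYAP5SA samples all lay below every control and C57BL/6 sample.

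The comparison of nlsYAP5SA with control mice asks which of these genes differ when Cre and the active transgene are present. Neurod6 fell to 50.5% of its control level, and Cux2, a homeodomain factor of upper-layer neurons, fell to 83.3%. The other 7 genes did not pass the test, and for 6 of them (all but Rorb) the interval of the difference spanned 0. So 2 of 9 genes were called, both lower, where 10.8% of the 16315 genes tested were called in either direction and 3.44% were called lower (edgeR quasi-likelihood test, adjusted p of 0.05 or less). The same 2 genes were lower in every nlsYAP5SA sample than in every control sample, which held for 3.57% of all genes tested. Neurod6, among these 2, carried the Cre allele in the nlsYAP5SA mice alone. The 9 genes were also chosen with earlier results of these data known, so these shares do not test the set. The median log2 fold change over the 9 genes was -0.03, beside -0.0054 over all genes. In bulk tissue, fewer cells of a type and less RNA per cell cannot be told apart.

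Neurod6 stood at 92.3, 110.0, 93.9, 98.5 and 91.5 CPM in the control samples and at 55.2, 38.9, 48.1, 56.8 and 47.2 CPM in the nlsYAP5SA samples. The groups were far apart, with the lowest control sample well above the highest nlsYAP5SA sample. The log2 fold change was -0.98 ± 0.09 (SE, 95% interval -1.19 to -0.78), with an edgeR adjusted p of 2.65e-05, and the level relative to control was between 43.9% and 58.1%. In the 2 nlsYAP5SA samples with Y-linked reads Neurod6 was at 48.1 and 56.8 CPM, and in the 3 without at 38.9 to 55.2 CPM. The gene was called in 20 of 20 alternative fits, with log2 fold changes from -1.04 to -0.89.

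Neurod2, the closest counterpart of Neurod6 in these neurons, did not pass the test. It stood at 61.5, 60.4, 53.5, 65.3 and 53.7 CPM in controls and at 64.0, 51.1, 64.1, 52.1 and 55.3 CPM in nlsYAP5SA samples, and the groups overlapped over most of their range. Its log2 fold change was -0.04 (95% interval -0.22 to 0.14, edgeR adjusted p 0.808) and turned to 0.03 with an offset for GC content and gene length. Neurod1, which acts early in neuronal differentiation and in granule neurons of the dentate gyrus, stood at 14.9, 15.9, 16.0, 17.0 and 17.4 CPM in controls and at 18.6, 16.3, 17.2, 17.8 and 16.7 CPM in nlsYAP5SA samples. Its groups overlapped too, with a log2 fold change of 0.09 (95% interval -0.05 to 0.23, edgeR adjusted p 0.417). Neither interval reached the size of the difference seen in Neurod6.

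Because Neurod6, Neurod2, Tbr1 and Slc17a7 are all expressed by excitatory neurons, Neurod6 was also set against each of the others within each sample, as a log2 ratio of (CPM + 0.5). The ratio of Neurod6 to Neurod2 was 0.58, 0.86, 0.81, 0.59 and 0.77 in controls and -0.21, -0.39, -0.41, 0.12 and -0.23 in nlsYAP5SA samples. Every nlsYAP5SA sample thus lay below every control, with means of 0.72 ± 0.13 and -0.22 ± 0.21 (SD, n = 5 each) and a difference of -0.94. The ratio to Tbr1 was 0.29 ± 0.18 in controls, from 0.08 to 0.54, and -0.76 ± 0.21 in nlsYAP5SA samples, from -1.06 to -0.52, a difference of -1.05. The ratio to Slc17a7 was -3.09 ± 0.17 in controls, from -3.20 to -2.79, and -3.92 ± 0.29 in nlsYAP5SA samples, from -4.22 to -3.50, a difference of -0.83. Slc17a7 itself had a log2 fold change of -0.16 (95% interval -0.31 to -0.01, edgeR adjusted p 0.169) and did not pass the test. The 3 ratios share Neurod6 as their numerator and the same samples, and Neurod2, Tbr1 and Slc17a7 did not pass the test, so the differences restate the lower level of Neurod6 given above and are not further evidence of it. Each of the 3 gave p = 0.00794 in a two-sided exact permutation test, the smallest value that 5 against 5 samples allow, and 0.00794 after Benjamini-Hochberg adjustment over the 3. The C57BL/6 samples lay at 0.60 ± 0.09, 0.17 ± 0.16 and -3.26 ± 0.15 (SD, n = 3) for the 3 ratios, above every nlsYAP5SA sample in each.

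**Figure D2:**
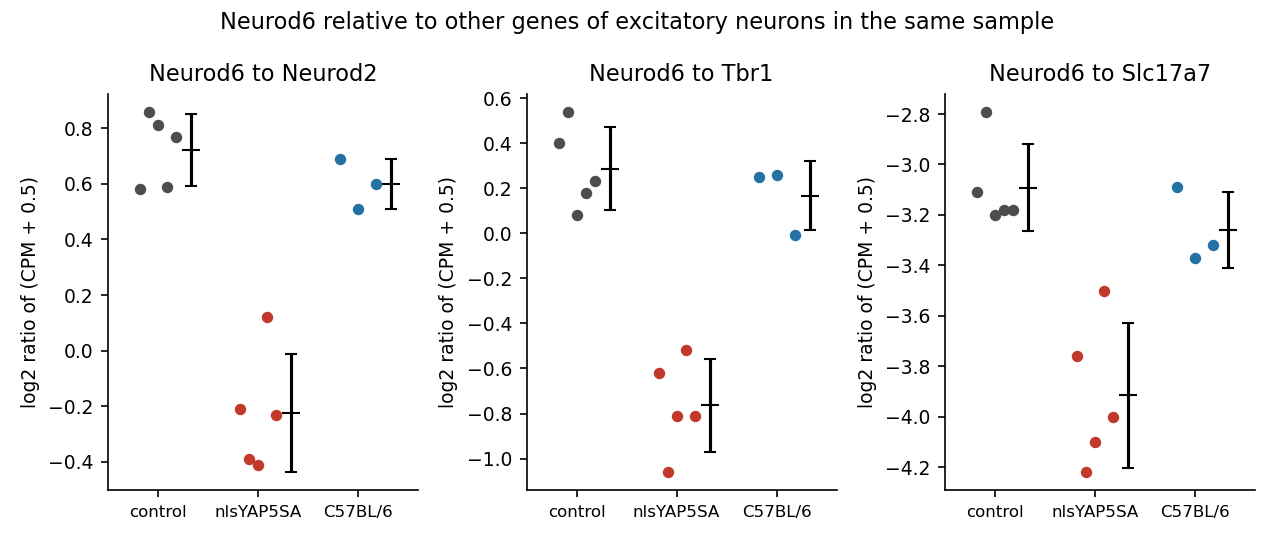
Log2 ratio of Neurod6 to Neurod2, to Tbr1 and to Slc17a7 within each sample, by group; points are samples, and the bar is the mean with its SD. In each panel the 5 nlsYAP5SA samples lie below all 5 control and all 3 C57BL/6 samples, with differences in means of -0.94, -1.05 and -0.83 from control. The vertical axes do not start at 0 and differ between panels.

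Of the deep-layer factors, none passed the test. Tbr1, a T-box factor of layer 6 neurons, stood at 69.6, 75.6, 89.0, 86.9 and 78.2 CPM in controls and at 85.3, 81.6, 84.9, 81.4 and 83.0 CPM in nlsYAP5SA samples. The nlsYAP5SA samples were close to each other and lay inside the control range, and the log2 fold change was 0.06 (95% interval -0.07 to 0.19, edgeR adjusted p 0.607). Bcl11b, a zinc finger factor of subcerebral projection neurons that is also made by hippocampal and striatal neurons, stood at 110.0, 110.0, 127, 127 and 113 CPM in controls and at 122, 107, 116, 123 and 108 CPM in nlsYAP5SA samples. These ranges overlapped almost fully, with a log2 fold change of -0.03 (95% interval -0.17 to 0.10, edgeR adjusted p 0.785) whose sign turned in the fits that took account of the Y-linked reads. Fezf2, a zinc finger factor that directs layer 5 neurons to subcerebral targets, stood at 21.6, 22.7, 20.6, 22.9 and 19.4 CPM in controls and at 24.3, 20.4, 20.5, 20.3 and 22.3 CPM in nlsYAP5SA samples. Its groups overlapped, and the log2 fold change was 0.00 (95% interval -0.15 to 0.16, edgeR adjusted p 0.983).

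Of the upper-layer and layer 4 factors, Cux2 alone passed the test. Cux2 stood at 82.9, 84.8, 102, 98.2 and 95.6 CPM in controls and at 76.9, 77.6, 76.9, 80.6 and 74.3 CPM in nlsYAP5SA samples. The groups did not overlap, but the gap between them was small beside the spread of the controls. The log2 fold change was -0.26 ± 0.06 (SE, 95% interval -0.39 to -0.13), with an edgeR adjusted p of 0.0126. The call was made in 17 of 20 alternative fits. It was lost with the Y-linked level as a covariate (-0.23, adjusted p 0.207), in samples with Y-linked reads only (-0.24, adjusted p 0.381) and without control replicate 4 (-0.24, adjusted p 0.0505). In the 2 nlsYAP5SA samples with Y-linked reads Cux2 was at 76.9 and 80.6 CPM, and in the 3 without at 74.3 to 77.6 CPM.

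Rorb, a nuclear receptor of layer 4 neurons, stood at 36.1, 38.2, 51.7, 48.2 and 47.9 CPM in controls and at 35.6, 39.2, 36.2, 39.3 and 39.2 CPM in nlsYAP5SA samples. The controls fell into 2 low and 3 high samples, and the nlsYAP5SA samples lay near the low ones. The log2 fold change was -0.23 (95% interval -0.43 to -0.03), and the edgeR adjusted p of 0.141 missed the threshold. Rorb was called in 2 of 20 alternative fits, with the offset for GC content and length (-0.31, adjusted p 0.00216) and without control replicate 1 (-0.29, adjusted p 0.0367). Cux1, a homeodomain factor related to Cux2 that many cell types also make, stood at 113, 112, 120.0, 117 and 114 CPM in controls and at 108, 120.0, 107, 115 and 113 CPM in nlsYAP5SA samples. Its groups overlapped, with a log2 fold change of -0.03 (95% interval -0.14 to 0.07, edgeR adjusted p 0.729). The intervals of Cux1 and Cux2 overlapped between -0.14 and -0.13, and the difference between these related genes was not tested.

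The C57BL/6 mice, which carried neither allele, were compared with the controls, which differed from them in both the silent transgene and the litter. Of the 9 genes, 0 were called by edgeR, 0 had an unadjusted p under 0.05 and 0 were called by DESeq2. Of all 16546 genes, edgeR called 0.169% and DESeq2 called 59. With so few calls over all genes, 0 of 9 does not set these genes apart and does not show that they were unmoved. The intervals below give the range of differences for single genes. Neurod6 was at 103, 92.5 and 88.0 CPM in the C57BL/6 samples, which overlapped the controls, with a log2 fold change of -0.04 (95% interval -0.23 to 0.15). Cux2 was at 85.8, 88.0 and 105 CPM, within or just above the control range, with a log2 fold change of 0.00 (95% interval -0.22 to 0.23). Rorb had the widest interval of the 9 genes, -0.44 to 0.22, at 40.3, 34.2 and 48.5 CPM. Every one of the 9 genes overlapped between these groups, and the estimate of largest size was that of Cux1, -0.13 (95% interval -0.29 to 0.03). Cux1 was at 103, 98.4 and 114 CPM, so its C57BL/6 samples reached lower than its controls.

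The remaining genes were not called either. Neurod1 was at 15.1, 14.7 and 17.4 CPM, Neurod2 at 63.4, 65.0 and 57.9 CPM, and Tbr1 at 86.3, 76.9 and 88.9 CPM. Bcl11b was at 119, 98.4 and 110.0 CPM and Fezf2 at 21.4, 22.0 and 21.0 CPM. For each of these 5 genes the control range was overlapped.

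Set against C57BL/6, the nlsYAP5SA samples again had lower Neurod6. This comparison shares its nlsYAP5SA samples with that against controls, so the values stand side by side and are not a second test of those samples. The log2 fold change of Neurod6 was -0.95 ± 0.11 (SE, 95% interval -1.20 to -0.70, edgeR adjusted p 0.00123), or 51.7% of the C57BL/6 level. Cux2 was again lower in every nlsYAP5SA sample, with a log2 fold change of -0.28 ± 0.08 (SE, 95% interval -0.45 to -0.11), but its edgeR adjusted p of 0.0596 missed the threshold. In all, 1 of 9 genes was called, and it was lower, where 6.38% of 16641 genes were called and 2.22% were called lower. The samples of 2 genes did not overlap, with nlsYAP5SA lower in both, where this held for 6.47% of genes. The limits given for the shares against control hold here too. The call of Neurod6 was lost with only the samples that had Y-linked reads (-0.87, adjusted p 0.092), a fit of 2 against 2, and it was made in 16 of 18 alternatives. The other 7 genes had log2 fold changes from -0.13 to 0.12, and each of their intervals spanned 0.

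**Figure D3:**
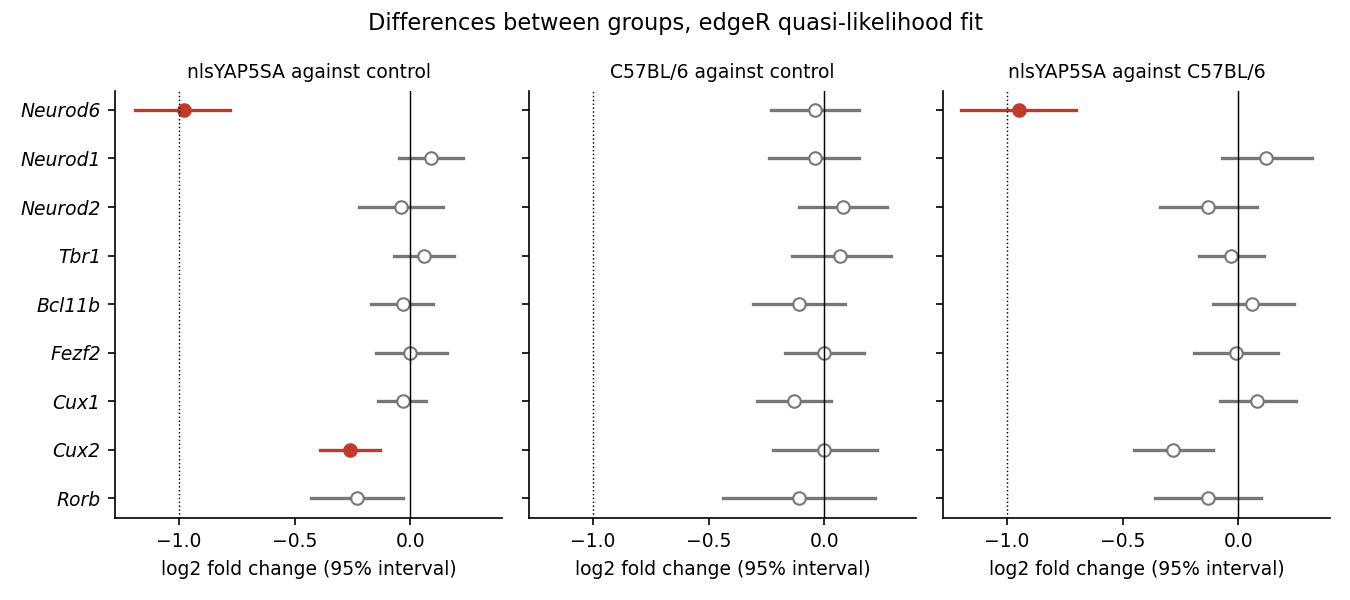
Log2 fold change of the 9 genes in the 3 comparisons, with 95% intervals from the edgeR fit; filled red marks an adjusted p of 0.05 or less, the solid line is no difference and the dotted line a log2 value of -1. The intervals of Neurod6 (-1.19 to -0.78 and -1.20 to -0.70) include the dotted line in both comparisons with nlsYAP5SA samples, and every interval between C57BL/6 and control spans 0. The outer panels share the nlsYAP5SA samples, and the first and second share the controls.

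The genes around this group in the pathway were taken from lists of markers. Of 7 paralogues of the 9 genes, 6 were tested between nlsYAP5SA and control and 1 was called. The related Bcl11a (0.01) and Rora (-0.05) were the most abundant and did not pass. Of 8 progenitor factors that act upstream of the NeuroD genes, 7 were tested and Pax6 alone was called, higher by 0.44 on the log2 scale (edgeR adjusted p 0.00706), in every nlsYAP5SA sample. With the Y-linked level as a covariate Pax6 stood at 0.45 and was not called (adjusted p 0.0734). Sox2 (0.10) and Hes5 (-0.01) were not called. The median log2 fold change was -0.02 for the paralogues and 0.03 for the progenitor factors.

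Most of the layer markers other than the 9 genes were not called, and the calls went in both directions. Among 12 further upper-layer and callosal genes, Lhx2 was called higher (0.24, adjusted p 0.0352) and Pou3f1 lower (-0.38, adjusted p 0.0499), with a median of 0.01 and 10 of the 12 not called. Each of these calls was lost in 12 of the 20 alternative fits, and with the Y-linked level as a covariate Lhx2 stood at 0.29 (adjusted p 0.12) and Pou3f1 at -0.32 (adjusted p 0.421). Among 12 further deep-layer genes, Bcl6 was called higher (0.36) and Syt6 (-0.25), Zfpm2 (-0.34) and Nr4a2 (-0.25) lower, at adjusted p of 0.00992, 0.0111, 0.0252 and 0.0491 in edgeR, with a median of -0.03 and 8 of the 12 not called. Of the 20 alternative fits, the call was lost in 2 for Bcl6, 4 for Syt6, 8 for Zfpm2 and 14 for Nr4a2. Of 10 excitatory neuron genes of all layers 0 were called, with a median of -0.10, and the most abundant, Camk2a (-0.11) and Nrgn (-0.22), did not pass. At an unadjusted p under 0.05, 4 of those 10 genes passed, and DESeq2 called 2, Nrgn and Ptk2b. Over all 16315 genes tested, 3984 had an unadjusted p under 0.05 in edgeR and DESeq2 called 2259. Of 8 genes of hippocampal CA pyramidal neurons, where Neurod6 is also expressed, Fibcd1 (-0.78, adjusted p 2.33e-05) and Grik4 (-0.40, adjusted p 0.00424) were called lower, at a median of -0.02. With the Y-linked level as a covariate Fibcd1 stood at -0.83 (adjusted p 0.000616) and Grik4 at -0.29, no longer called (adjusted p 0.131).

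Genes of other neurons and regions were read in the same samples. The counts at an unadjusted p under 0.05 and by DESeq2, in this paragraph and the next, stand beside 3984 and 2259 of all 16315 genes. Of 6 dentate gyrus genes edgeR called 1, Dsp (0.56, adjusted p 0.0493), and DESeq2 2, Dsp and C1ql3 (0.26), while Prox1 (-0.17) was called by neither, with a median of 0.08. The edgeR call of Dsp was lost in 15 of 20 alternative fits. Of 9 striatal genes edgeR and DESeq2 called 0, with 2 at an unadjusted p under 0.05, a median of -0.01, and Pde10a at 0.04 and Ppp1r1b at 0.28. Of 7 thalamic genes edgeR called 0 and DESeq2 2, with 2 at an unadjusted p under 0.05, a median of -0.11, and Slc17a6 at -0.24 and Calb2 at -0.25. The striatal and thalamic lists thus held no edgeR call. Cerebellar and hindbrain genes summed to between 2.47 and 4.08 CPM per sample, with Atoh1, Hoxb3 and Hoxc4 at 0 counts in every sample. Of the 4 of them tested, 0 were called by edgeR or DESeq2, with 1 at an unadjusted p under 0.05, a median of -0.03, and En1 at -0.54 and Cbln3 at 0.78. Of 13 interneuron genes edgeR called Pvalb alone (-0.60, adjusted p 0.0356) and DESeq2 2, Npy and Pvalb, with 5 at an unadjusted p under 0.05, a median of 0.06, Gad1 at 0.06 and Gad2 at 0.09. The call of Pvalb was lost in 12 of 20 alternative fits. Of 10 pan-neuronal genes edgeR called 0 and DESeq2 1, Eno2, with 2 at an unadjusted p under 0.05, a median of -0.08, and Syp at -0.07 and Syt1 at -0.02. Of the 10 log2 fold changes, 1 was above 0.

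Some genes of astrocytes and most of those of microglia were called higher in the comparison in which Neurod6 and Cux2 were lower. Astrocyte genes summed to 1110 to 1360 CPM in controls and 1830 to 2270 CPM in nlsYAP5SA samples. Gfap made up much of that rise, with means of 181 CPM in controls and 754 CPM in nlsYAP5SA samples. Of the 6 genes, at a median of 0.29, Gfap (2.06, adjusted p 1.34e-08), Vim (1.34, adjusted p 2.83e-06) and Slc1a3 (0.31, adjusted p 0.0231) were called higher by edgeR and S100b lower (-0.35, adjusted p 0.0163), and the other 2 did not pass. The call of Slc1a3 was lost in 7 of 20 alternative fits and that of S100b in 4. Microglia genes summed to 295 to 371 CPM in controls and 435 to 567 CPM in nlsYAP5SA samples, and 6 of 7 were called higher, beside 7.36% of all genes tested, among them C1qa (1.18), Csf1r (0.76) and Cx3cr1 (0.68), at a median of 0.68. The 7 oligodendrocyte genes summed to 2080 to 3320 CPM in controls and 1370 to 2760 CPM in nlsYAP5SA samples and had a median of -0.46, with all 7 values below 0. Of these edgeR called 1, Olig1 (-0.29, adjusted p 0.00649), DESeq2 called 3, Mbp (-0.49) among them, and 6 had an unadjusted p under 0.05. Choroid plexus genes summed to 7.59 to 229 CPM in controls and 9.65 to 301 CPM in nlsYAP5SA samples. Of these 5 genes edgeR called 1, Folr1 (2.20, adjusted p 0.0133), and DESeq2 2, Clic6 (1.02) and Folr1, while Ttr (1.04) was called by neither, at a median of 1.02. With the Y-linked level as a covariate Folr1 stood at 1.93 and was not called (adjusted p 0.153). Of 6 ciliated ependymal genes edgeR and DESeq2 called 1, Foxj1 (0.78, adjusted p 0.00773), and not Dnah5 (0.05) or Rsph1 (0.38), at a median of 0.54. With the Y-linked covariate neither Foxj1 (0.70, adjusted p 0.122) nor Olig1 (-0.31, adjusted p 0.0594) was called. The part of these cells in the differences of Neurod6 and Cux2 was not tested. Pan-neuronal genes summed to 7370 to 7600 CPM in controls and 6940 to 7330 CPM in nlsYAP5SA samples, so every nlsYAP5SA sum lay below every control sum. Of the 23 called genes of these lists that the naming rule gave, 7 were still called with the Y-linked level as a covariate and 16 were not, while every one of the 23 kept its direction there.

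**Figure D4:**
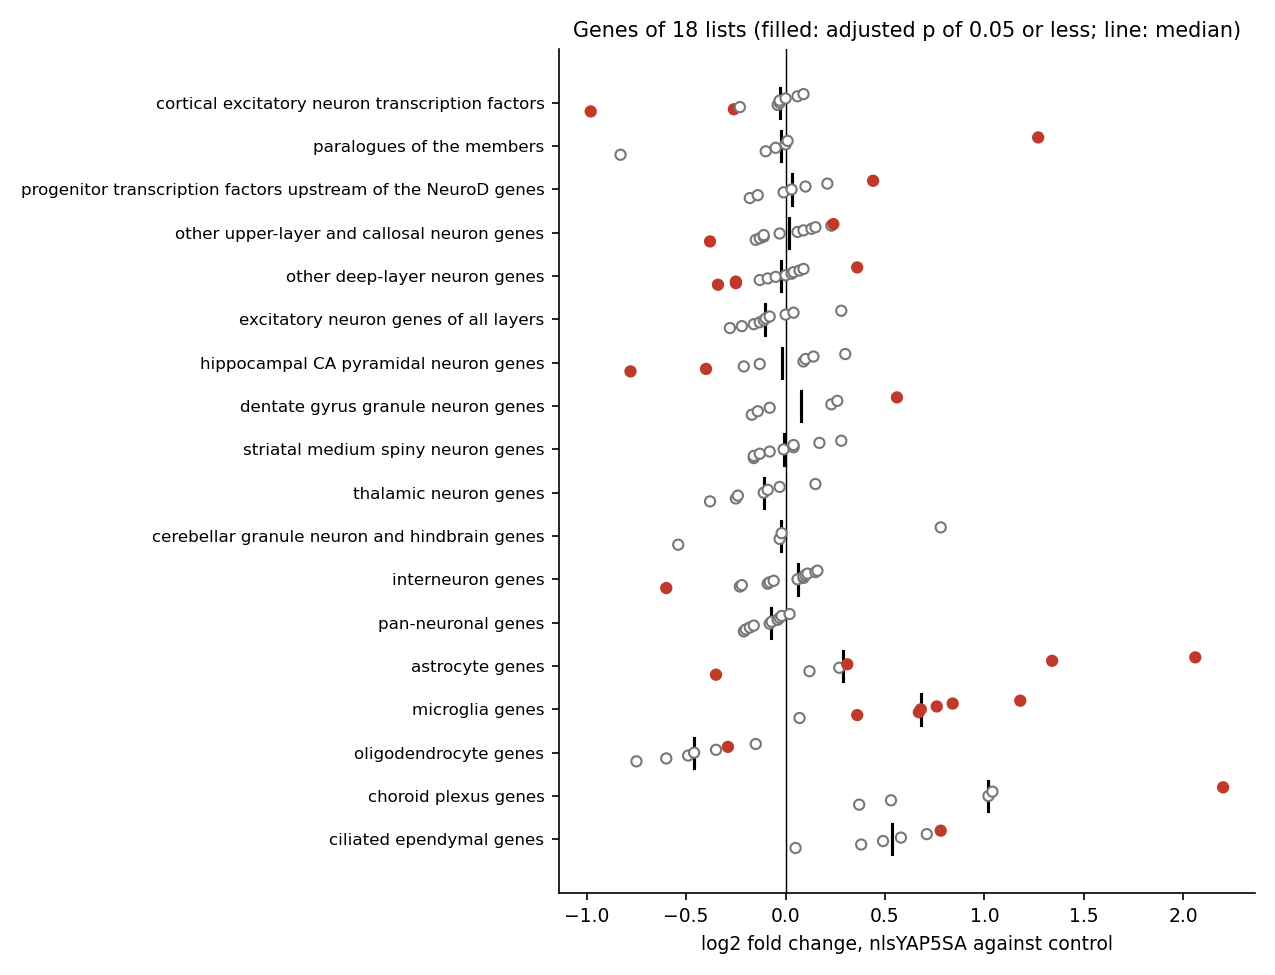
Log2 fold change between nlsYAP5SA and control samples of each tested gene in 18 lists, the 9 genes in the top row; filled points have an edgeR adjusted p of 0.05 or less, and the vertical line is the median of the list. Neurod6 at -0.98 is the lowest value in the plot among called genes, with Fibcd1 at -0.78 next, while the largest increases are Folr1 at 2.20 and Gfap at 2.06.

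How the 9 genes varied among samples of the same genotype was described by Pearson's r over the 13 samples, after subtracting each group's mean from log2(CPM + 0.5). These points share libraries and depth, and no test was made. Of 36 pairs, Cux2 and Rorb were most alike (r = 0.88, Spearman's rho = 0.92), and Rorb was also alike with Tbr1 (r = 0.82) and Cux1 (r = 0.77). In the level values this is seen as control replicates 1 and 2 being low in Cux2, Rorb and Tbr1 together. Neurod6 did not follow this set, with r = -0.20 to Cux2, -0.25 to Rorb and 0.04 to Tbr1, and its highest values were with Bcl11b (0.47), Fezf2 (0.44) and Neurod2 (0.40). Neurod2 and Cux1 went most in opposite directions (r = -0.70).

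These values changed after an offset for base composition and length together. After this offset, chosen for this use after the data were seen, r between Cux2 and Rorb was 0.54, between Tbr1 and Rorb -0.27 and between Neurod2 and Cux1 -0.00. Tbr1 and Cux1 went from 0.46 to -0.81, the most opposed pair after the offset, and the most alike pair was then Bcl11b and Rorb (0.74, from 0.52). The pairs Cux1 and Rorb (0.65), and Neurod6 and Neurod2 (0.33), kept their sign. Neurod6 was most alike with Bcl11b after the offset (0.67).

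**Figure D5:**
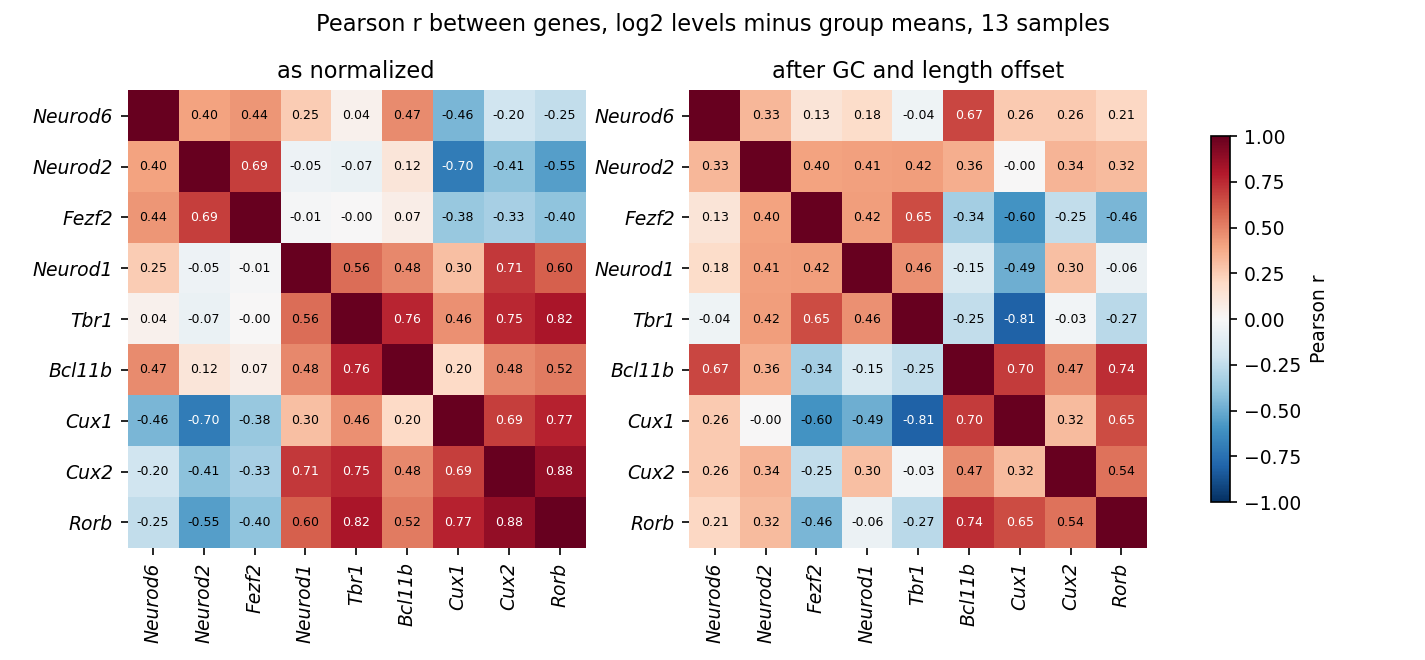
Pearson r between the 9 genes over 13 samples after subtracting group means, as normalised (left) and after an offset for GC content and gene length (right); red is positive, blue negative. The block of high values around Cux2, Rorb and Tbr1 on the left, such as 0.82 for Tbr1 and Rorb, is largely absent on the right, where the same pair is at -0.27.

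The genes that varied most like 4 of the 9 genes were sought among the 10024 whose mean level reached 10 CPM. For Neurod6 they were Tmem50b (r = 0.95), Khdrbs3 (r = 0.94) and Btbd1 (r = 0.94), with 0.53, 0.84 and 0.92 after the offset. For Tbr1 they were Bcr, AI593442 and Rap1gds1 (each r = 0.94), with 0.75, 0.43 and 0.90 after the offset. For Bcl11b they were Add1 (0.88), Npy1r (0.85) and Tmem200c (0.83), of which Add1 alone stayed above 0.5, at 0.53. For Rorb they included Sipa1l1 and C2cd3 (each r = 0.99), and after the offset these stood at -0.18 and -0.15, so the likeness of Rorb did not hold in the corrected levels while those of Neurod6 and Tbr1 kept their sign.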

How the data were processed

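RNA was sequenced from 13 right hemispheres (KAPA mRNA HyperPrep libraries, Illumina sequencing). The authors deposited 1 table of estimated counts. RSEM 1.3.0 gave these per gene from reads trimmed with cutadapt 1.5 and mapped with STAR to GRCm38 with Ensembl transcripts, with no normalisation; RSEM shares ambiguous reads between genes. Names and positions were matched for 48349 of 48795 identifiers from GENCODE M21, a later release than that used for counting, so gene limits and lengths can differ. All 151 genes of 18 lists matched 1 identifier each. Samples were grouped by the labels, and each was a separate mouse. The members and lists were chosen with earlier results of these data known.

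Estimated counts were rounded, filtered with filterByExpr (minimum count 10, minimum total 15), normalised with TMM and tested between 2 groups at a time with edgeR's quasi-likelihood test, two-sided. The tools were edgeR 4.0.16, DESeq2 1.42.0 and limma 3.58.1 under R 4.3.3. P-values were adjusted by Benjamini-Hochberg over all genes tested and called at 0.05 or less. Ratios within samples were compared by exact permutation. Figures and other values used matplotlib 3.10.9, scipy 1.17.1, numpy 2.4.6 and pandas 2.3.3 under Python 3.11.15. Intervals are 95%. Named genes outside the 9 were, for each list, the genes called in nlsYAP5SA against control, up to 4 by smallest p, and, where fewer than 2 were called, also the 2 with the highest mean level (47 genes), and the 3 most like each of Neurod6, Tbr1, Bcl11b and Rorb. Some genes that this rule gave are not reported here. On simulated counts for nlsYAP5SA against control (16147 genes) the test recovered 87.9% of log2 changes of 1 and 46.4% of changes of 0.5. It recovered 65.6% and 20.2% for C57BL/6 against control, and 69.7% and 27.3% for nlsYAP5SA against C57BL/6. Of the calls, 5.7%, 8.8% and 1% were false in these 3 comparisons, in that order. Totals ran from 20871566 to 25524349 per sample. Counts are reads, not molecules, so depth speaks to counting error only.

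Alternatives were DESeq2's Wald test, no filter, a minimum of 10 counts per sample, library size alone, size factors of DESeq2 in edgeR, a single fit of all samples, a replicate block, the Y-linked level as covariate, a GC and length offset, leaving out each sample in turn and, for the ratios, pseudocounts of 0.1 and 2 CPM. A fit of the samples with Y-linked reads above 10 CPM and the offset in the correlations were added after the data were seen.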

Additional observations from a re-analysis of the deposited data

Results flagged for a closer look

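In groups of 5 samples, 7 of 118 group values tested held 1 sample far from the rest by Dixon's criterion, and chance gives about 1 in 20. None of the levels of the 9 genes was among them. The log2 ratio of Neurod6 to Slc17a7 was -2.79 in control replicate 2, above -3.20 to -3.11 in the other controls. Zfpm2, a deep-layer gene, was at 15.6 CPM in control replicate 1 against 20.4 to 21.4 CPM in the others. C1ql3, of the dentate gyrus, was at 34.6 CPM in control replicate 1 (others 45.2 to 47.2) and at 59.4 CPM in nlsYAP5SA replicate 2 (others 49.7 to 52.4). En1 was at 1.68 CPM in control replicate 1 (others 0.672 to 0.939) and Cbln3 at 0.882 CPM in control replicate 4 (others 0.472 to 0.573). Vim was at 103 CPM in nlsYAP5SA replicate 3, the lowest of its group, where the others lay at 133 to 143 CPM.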

How the results depend on the processing

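The count of called genes among the 9 in nlsYAP5SA against control, 2, was 1 with the Y-linked level as covariate and 1 in samples with Y-linked reads only, 3 with the GC and length offset, which added Rorb, and ranged from 1 to 3 when samples were left out in turn. Against C57BL/6 the count of 1 became 2 with DESeq2 and with the GC and length offset, where Cux2 was added (adjusted p 0.0242 and 0.0144), and 0 in samples with Y-linked reads only. The replicate numbers do not pair the samples: same-numbered control and nlsYAP5SA samples correlated at -0.251 to 0.223 in their deviations, with 0 of 5 best with their own number. With the replicate block, the count against C57BL/6 was 0 (Neurod6 -1.02, adjusted p 0.0611). Pairing leaves the differences in the ratios at -0.94, -1.05 and -0.83 by construction, and the exact p of 0.0625 is the smallest that 5 pairs allow, so it could not pass the threshold and says nothing about stability. Over all genes, nlsYAP5SA against control gave 1200 higher and 561 lower calls. It gave 475 and 64 with the Y-linked covariate, 308 and 26 with Y-linked reads only, 936 and 303 with the block, 1364 and 895 with DESeq2, and 1473 and 943 with the offset. Lower calls fell to 315 without control replicate 4 and to 351, 340 and 296 without nlsYAP5SA replicates 1, 2 and 5. Against C57BL/6, 692 and 369 became 952 and 644 with DESeq2, 1016 and 662 with the offset, 957 and 565 in the single fit, 713 and 236 with library size alone, 45 and 2 with the block and 43 and 4 with Y-linked reads only. They became 302 and 99, 460 and 121, and 987 and 770 without C57BL/6 replicates 1, 2 and 3, and 468 and 168, 445 and 200, 721 and 241, and 396 and 113 without nlsYAP5SA replicates 1, 2, 3 and 5. C57BL/6 against control gave 28 calls, 59 with DESeq2, 44 in the single fit, 16 with at least 10 counts in every sample and 15 with the block.

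Signs turned for some uncalled genes, among them Ttr (1.04). In nlsYAP5SA against control, the offset gave Neurod2 0.03, Bcl11a -0.05, Hes5 0.15 and Dnah5 -0.04. The Y-linked covariate gave Bcl11b 0.02, Hes5 0.16 and Ttr -0.03, and samples with Y-linked reads only gave Bcl11b 0.01, Hes5 0.17 and Ttr -0.02. Leaving out a sample in turn gave ranges of -0.01 to 0.04 for Bcl11a, -0.16 to 0.06 for Rora, -0.07 to 0.09 for Hes5, -0.05 to 0.15 for Pde10a, -0.07 to 0.02 for Syt1 and -0.07 to 0.16 for Dnah5. In C57BL/6 against control, Neurod1 was 0.01 in the block and with both Y-linked settings, and ranged from -0.14 to 0.01 with a sample left out. Against C57BL/6, library size alone gave Tbr1 0.01 and Fezf2 0.03, the offset gave Cux1 -0.02 and Fezf2 0.06, no filter and the single fit gave Fezf2 0.01, and leaving out a sample gave ranges of -0.07 to 0.02 for Tbr1, -0.23 to 0.01 for Rorb and -0.05 to 0.03 for Fezf2. The cause of these shifts was not tested. Intervals as wide as those of Rorb, with 3 to 5 mice a group, limit what small differences could be seen.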
